A study of Danio rerio with 4 samples.

Results

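The 8 keratin genes described here are krt4, krt5, krt8, cyt1, cyt1l, krtt1c19e, krt96 and krt97. They were taken from the deposited table by symbol, 1 row per gene ID, and make up 8 of its 32520 distinct genes and 8 of its 23 rows with a keratin symbol. Expression was measured by RNA sequencing in whole larvae of zebrafish (Danio rerio). The larvae of the PM2.5 group were exposed to 12000000 smog particles from 72 to 120 hours after fertilization, and the control larvae were untreated. PM2.5 is the fine fraction of airborne particles, and the series asks what it does to the glomerulus of the kidney. Each group had 2 libraries, RNA came from 5 to 7 larvae per group, and the labels give no strain or allele. Values are TPM, a gene's length-corrected share of a library scaled to 1000000, so levels of different genes can be compared and a TPM does not give an absolute amount of RNA.

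Keratins are the intermediate filament proteins of epithelial cells. A filament is built from pairs of a type I and a type II keratin, so an epithelial cell makes keratins of both types. The skin of a zebrafish larva has a superficial layer, the periderm, which derives from the enveloping layer of the embryo, over a layer of basal keratinocytes that rests on the basement membrane. The type II genes krt4 and krt5 and the type I genes cyt1 and cyt1l are known from the superficial layer, and krtt1c19e is used as a marker of basal keratinocytes. The type II gene krt8 belongs with krt18 to the keratins of simple epithelia.

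The libraries held at least 23668649 and 15197932 reads in PM2.5 larvae and at least 19035608 and 14792942 in controls, as worked out from the steps between their TPM values. Within a group, the libraries differed by more than counting noise over all genes, with a chi-square of 6.69 per degree of freedom between the PM2.5 libraries and 4.19 between the controls. Nothing in the labels says that they came from separate clutches or exposures, and the tests below take their error from this spread alone, which may be of technical origin. In RNA of whole larvae, fewer cells of a type and less RNA per cell cannot be told apart. The label of skin keratins cannot be checked with these values. The markers of larval keratinocytes krt4, krt5, cyt1, cyt1l, krtt1c19e and tp63 were above 0 in every library. All of them but tp63 are keratins under that label. Values above 0 were also found for 24121 and 25138 genes in the PM2.5 libraries and 25069 and 24923 in the controls. No value shows in which tissue any of these keratins, krt8, krt96 and krt97 included, was transcribed. The keratins were chosen by their TPM in these PM2.5 and control libraries, whose differences were already known, so their values are given as a description: no p-value is printed for them, and where they pass or miss a threshold is no test of them.

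The type II keratin krt4 was the most abundant keratin of the controls. It stood at 1950.5 and 1978 TPM in PM2.5 larvae, against 5025 and 4904.5 TPM in controls. That is a mean of 1964 ± 19.3 TPM in PM2.5 larvae and 4965 ± 85.3 TPM in controls (SD, n = 2 each), so that the level was 2.53-fold lower with PM2.5 (between 2.48 and 2.58 over the 4 pairings of libraries). Its place among all genes by TPM was 82 and 77 in the PM2.5 libraries, against 18 and 17 in the control libraries. The second type II keratin of the surface layer, krt5, had 1599 and 1623 TPM in PM2.5 larvae, against 3074 and 3061 TPM in controls. It was thus 1.90-fold lower (1.89 to 1.92). Both genes were lower in each PM2.5 library than in each control library, and krt4 was lower by the larger factor.

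The third type II keratin differed little. The simple epithelium keratin krt8 had 458 and 454 TPM in PM2.5 larvae, against 409 and 402 TPM in controls. The PM2.5 libraries were both above the controls, by a factor of 1.13 (1.11 to 1.14). RefSeq lists krt8 among the older names of krt4, and the values here are those of the rows ENSDARG00000058358 (krt8, chromosome 23) and ENSDARG00000017624 (krt4, chromosome 6).

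The type I genes cyt1 and cyt1l of the superficial layer were further apart between the groups than the type II genes krt4 and krt5. The gene cyt1, named for the enveloping layer, had 952 and 999 TPM in PM2.5 larvae, against 2848 and 2836 TPM in controls. Its mean was 976 ± 32.7 TPM in PM2.5 larvae and 2842 ± 8.59 TPM in controls, 2.91-fold lower with PM2.5 (2.84 to 2.99). Its neighbour and near namesake cyt1l had 116 and 117 TPM in PM2.5 larvae, against 776 and 765 TPM in controls. With a mean 6.60-fold lower (6.54 to 6.67) and 15.1% of the control level left, cyt1l had the lowest log2 fold change of the 953 genes that averaged 100 TPM or more. Among all 20874 tested genes it stood 5th from the lowest, a place that the choice of the gene makes a description only. Its place by TPM was 860 and 848 in the PM2.5 libraries, against 189 and 188 in the control libraries. How the authors treated reads that match several places is not given in the sources used here, so the split of reads between cyt1 and cyt1l is uncertain.

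The basal keratinocyte keratin krtt1c19e, which RefSeq now lists as krt1-19e, was lower by about the same factor as cyt1. It had 774 and 748 TPM in PM2.5 larvae, against 2197 and 2120.1 TPM in controls. The mean was 761 ± 18.5 TPM in PM2.5 larvae and 2159 ± 54.4 TPM in controls, 2.84-fold lower with PM2.5 (2.74 to 2.94). The range of this factor over the pairings overlapped that of cyt1, so the order of these 2 differences is not resolved by their spread.

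The neighbouring genes krt97 and krt96 on chromosome 22 stood apart in opposite directions. The level of krt97 was 226 and 238 TPM in PM2.5 larvae, against 427 and 433 TPM in controls, 1.85-fold lower (1.80 to 1.92). The level of krt96 was 80.0 and 76.0 TPM in PM2.5 larvae, against 3.28 and 4.58 TPM in controls. In both PM2.5 libraries krt96 was thus above both controls, by a factor of 19.9 (16.6 to 24.4). The wide range of that factor comes with the 33.0% difference between the control libraries, which rest on 50 and 53 reads, against 1512 and 910 reads in the PM2.5 libraries (all 4 numbers may be too low by the same whole factor). The place of krt96 by TPM was 1262 and 1342 in the PM2.5 libraries, against 15979 and 14553 in the control libraries.

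**Figure D1:**
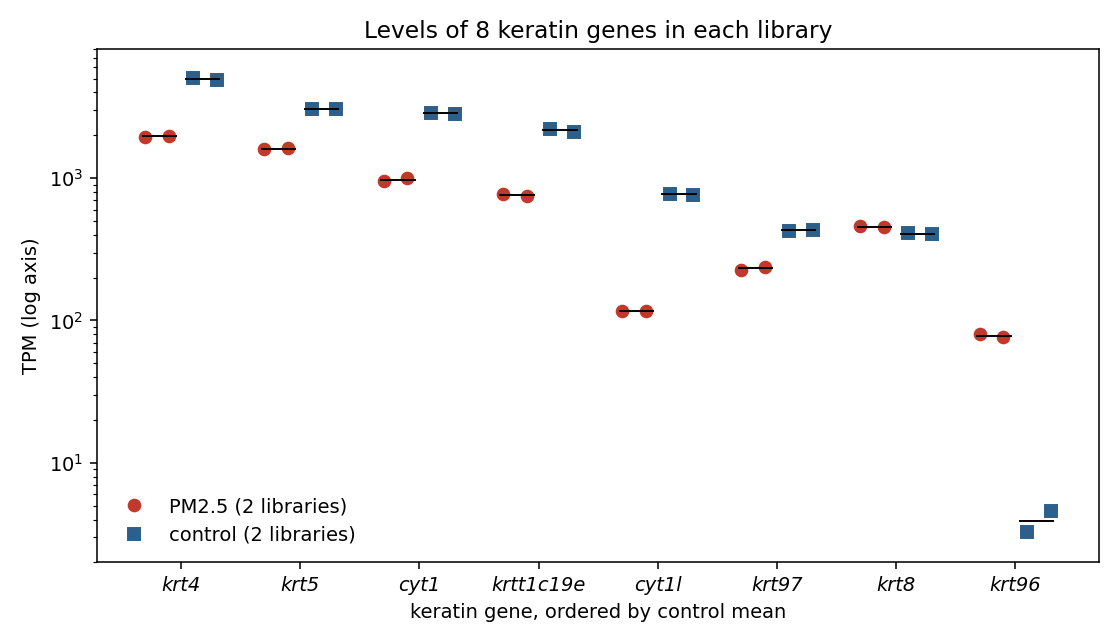
TPM (log axis) of the 8 keratins in each library, PM2.5 as circles and control as squares, with a bar at each group mean (n = 2 each). The groups are separate for every gene: 6 keratins are lower with PM2.5, krt8 is slightly higher at 458 and 454 TPM against 409 and 402 TPM, and krt96 is far higher.

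The spread between libraries of a group was small beside these differences. Apart from krt96 in controls, the 2 libraries of a group differed by between 0.412% and 5.12% of their mean for every one of the 8 genes. In the linear model fitted over all genes (limma on log2(TPM + 1)), 6 of the 8 keratins lay past the threshold of an adjusted p of 0.05 as lower, krt96 lay past it as higher and krt8 did not reach it, which the choice of the genes makes a description only. Of the 20874 genes tested, 2.62% passed as lower and 8.46% as higher, and the groups did not overlap in 56.3% of them (36.6% with PM2.5 above and 19.7% with PM2.5 below). A call with a level at least 2-fold lower was made for 0.498% of all genes and for 4 of the 8 keratins. Since the 8 genes were named with this contrast known, nothing is read from their count. The log2 fold changes were -2.71 (standard error, SE, 0.045) for cyt1l, -1.54 (0.036) for cyt1, -1.50 (0.038) for krtt1c19e, -1.34 (0.029) for krt4, -0.93 (0.029) for krt5 and -0.89 (0.049) for krt97. For krt8 the log2 fold change was 0.17 (0.041), and for krt96 it was 4.01 (0.15). The median of the 8 was -1.13, beside 0.07 for all tested genes. The order from cyt1l down to krt97 is described and was not tested. Within it, the SE ranges of 2 pairs of neighbours overlapped, cyt1 with krtt1c19e and krt5 with krt97.

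Summed over the 8 genes, keratin TPM came to 6157 and 6232 in PM2.5 larvae, against 14760 and 14527 in controls. This is 0.616% and 0.623% of all TPM in PM2.5 larvae and 1.48% and 1.45% in controls, so the sum was 2.36-fold lower with PM2.5. A TPM is a share of its library, and a share that falls in one set of genes is taken up by others. The proportions of the keratins to each other do not depend on the rest of the library, and they differed too. Of the 8-keratin sum, krt4 made up 31.7% in both PM2.5 libraries, against 34.0% and 33.8% in controls, and remained the largest part. The share of krt5 was 26.0% in both PM2.5 libraries, against 20.8% and 21.1% in controls. The share of krt8 was 7.45% and 7.29% in PM2.5 larvae, against 2.77% in both controls. These 2 type II genes thus took a larger part of the smaller 8-keratin sum, but for krt5 this depended on which genes were summed. The TPM of all 23 keratin rows came to a sum 1.94-fold lower with PM2.5. Of that sum krt5 made up 15.8% in both PM2.5 libraries, against 15.4% and 15.6% in controls. There krt8 made up 4.54% and 4.43% in PM2.5 larvae, against 2.05% in both controls.

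The type I genes cyt1, krtt1c19e and cyt1l took a smaller part. The share of cyt1 was 15.5% and 16.0% in PM2.5 larvae, against 19.3% and 19.5% in controls. That of krtt1c19e was 12.6% and 12% in PM2.5 larvae, against 14.9% and 14.6% in controls. That of cyt1l was 1.89% and 1.88% in PM2.5 larvae, against 5.26% and 5.27% in controls. All 3 were lower in each PM2.5 library. As a result, the sum of cyt1, cyt1l and krtt1c19e divided by the sum of krt4, krt5 and krt8 was 0.460 in both PM2.5 libraries, against 0.684 in both control libraries. This shift holds for the 3 named type I genes only. All 7 keratin rows of chromosome 19, which include these 3, were together 2.01-fold lower with PM2.5. The sum of krt4, krt5 and krt8 was 2.09-fold lower. The genes krt97 and krt96 made up 3.67% and 1.30% of the sum in PM2.5 library 1 and 3.81% and 1.22% in PM2.5 library 2. In control library 1 they made up 2.89% and 0.0222%, and in control library 2 2.98% and 0.0315%.

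**Figure D2:**
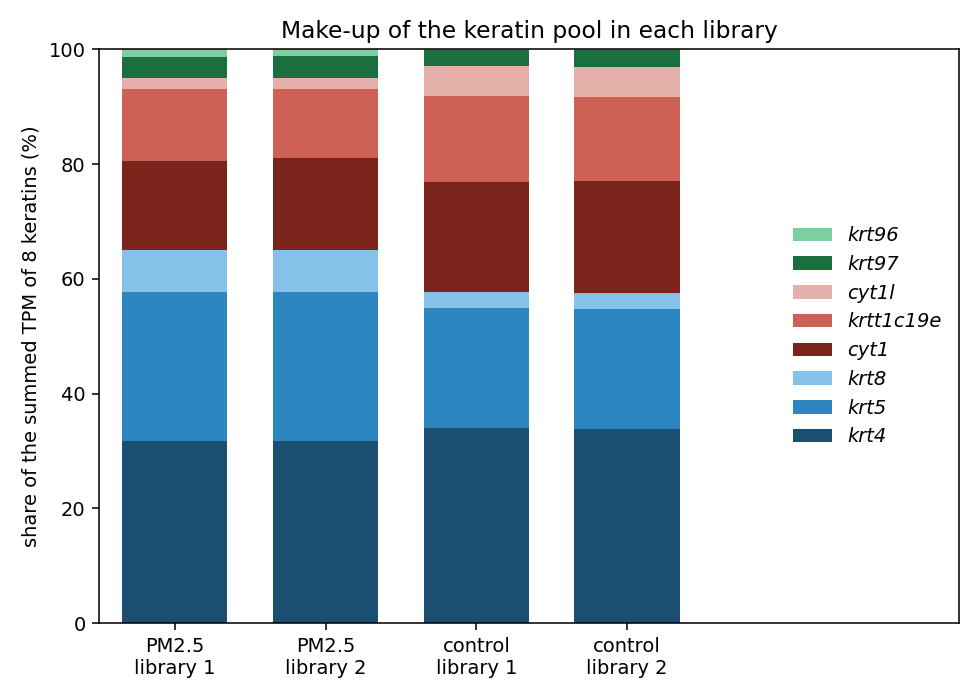
Share (%) of each of the 8 keratins in their summed TPM, 1 stacked bar per library, PM2.5 left of control. Blue parts are krt4, krt5 and krt8, red parts are cyt1, krtt1c19e and cyt1l, and green parts are krt97 and krt96. In both PM2.5 bars the parts of krt5 and krt8 are larger, those of krt4 and of the 3 red genes are smaller, and the cyt1l part is 1.89% and 1.88% there, against 5.26% and 5.27% in controls.

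Ratios of pairs within a library showed which keratins kept step. The ratio of krtt1c19e to cyt1 was 0.813 and 0.749 in PM2.5 larvae, against 0.771 and 0.747 in controls, so the groups overlapped. The ratio of krt5 to krt97 was 7.07 and 6.83 in PM2.5 larvae, against 7.2 and 7.07 in controls, and here too the groups overlapped. Both pairs thus kept their proportion within the spread of the libraries. The ratio of krt4 to krt5 was 1.22 in both PM2.5 libraries, against 1.63 and 1.6 in controls. The ratio of cyt1l to cyt1 was 0.122 and 0.117 in PM2.5 larvae, against 0.272 and 0.270 in controls, a difference of 2.27-fold beyond the difference in cyt1 itself. The largest shifts in these ratios involved krt8 and krt96. The ratio of krt8 to krt4 was 0.235 and 0.230 in PM2.5 larvae, against 0.0813 and 0.0820 in controls. The ratio of krt96 to krt97 was 0.354 and 0.320 in PM2.5 larvae, against 0.00768 and 0.0106 in controls.

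**Figure D3:**
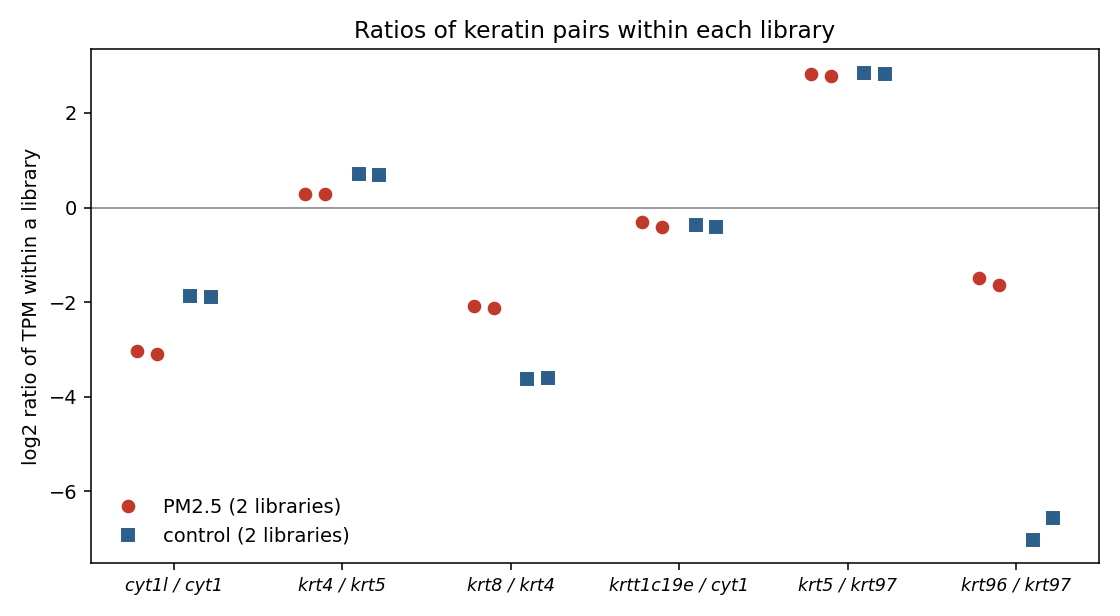
Log2 ratio of TPM within each library for 6 pairs of keratins, PM2.5 as circles and control as squares. The groups overlap for krtt1c19e over cyt1 and for krt5 over krt97, and are separate for the other 4 pairs.

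The table has 15 other rows with a keratin symbol. Of the 13 that reached a mean of 1 TPM and were tested, 2 passed the threshold as lower, 2 as higher and 9 did not pass, beside the 2.62% and 8.46% of all genes. Their median log2 fold change was 0.14. The most abundant was krt91, a gene of the chromosome 19 group, with 2394 and 2423 TPM in PM2.5 larvae, against 3472 and 3407 TPM in controls. It was lower with a log2 fold change of -0.51 (SE 0.028, adjusted p = 0.00034 in limma). Because krt4 was lower by more, krt91 was the most abundant keratin in both PM2.5 libraries, at 1.23 times krt4 in each, against 0.691 and 0.695 times krt4 in controls. The gene krt17 was also lower, at 503 and 514 TPM in PM2.5 larvae, against 721 and 707 TPM in controls (log2 fold change -0.49, limma adjusted p = 0.0013). Neither call depended on a single library, and both were lost without the intensity trend (adjusted p = 0.088 for krt91 and 0.096 for krt17).

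Keratins of simple epithelia lay on the other side of 0. The krt18 gene krt18b rose with PM2.5, at 133 and 132 TPM in PM2.5 larvae, against 103 and 100.4 TPM in controls (log2 fold change 0.38, limma adjusted p = 0.013). That call was lost in each of the 4 fits that left out 1 library (adjusted p between 0.080 and 0.12), with TMM-type scaling (0.068) and with quantile normalization (0.051). The other krt18 gene krt18a.1, at 210 TPM in both PM2.5 libraries and 185 and 180 TPM in controls, differed by 0.20 on the log2 scale, which did not pass (adjusted p = 0.061). The ratio of krt8 to krt18a.1, the pair of simple epithelia, was 2.19 and 2.17 in PM2.5 larvae, against 2.2 and 2.24 in controls. This was a shift of -0.03 on the log2 scale, small but without overlap of the groups. The remaining gene past the threshold was krt1-c5 (14.8 and 19.2 TPM in PM2.5 larvae, 8.25 and 10.7 TPM in controls, log2 fold change 0.78, adjusted p = 0.047), and its call was lost in each of the 4 fits (0.13 to 0.26). Values that did not pass were those of krt15 (0.14, adjusted p = 0.15), krt92 (-0.07, 0.53), krt1-19d (-0.07, 0.58), krt94 (0.31, 0.098), krt222 (0.12, 0.59), krt93 (0.82, 0.20), krt18a.2 (0.36, 0.65) and krt99 (0.02, 0.98). The rows krt95 and krt98 stayed under 1 TPM in every library.

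Genes next to each other on a chromosome did not share 1 size of change. The table places 7 keratins on chromosome 19, and RefSeq's annotation of the assembly GRCz12tu (used for gene order only) lists them as direct neighbours in the order krt1-19d, krtt1c19e, krt92, cyt1l, cyt1, krt17 and krt91. Along this row the log2 fold changes were -0.07, -1.50, -0.07, -2.71, -1.54, -0.49 and -0.51. The gene krt92 lies between krtt1c19e and cyt1l, and its groups overlapped at 260.0 and 284 TPM in PM2.5 larvae, against 294 and 277 TPM in controls. On chromosome 22 the direct neighbours krt222, krt97 and krt96 had 0.12, -0.89 and 4.01. On chromosome 23 krt5 had -0.93, beside 0.17 for krt8, 0.20 for krt18a.1 and 0.36 for krt18a.2. On chromosome 6 krt4 had -1.34 and krt18b, which lies 2 places further among the coding genes and is no direct neighbour, had 0.38. The 4 tested keratins of chromosome 11 lay between 0.02 and 0.82.

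**Figure D4:**
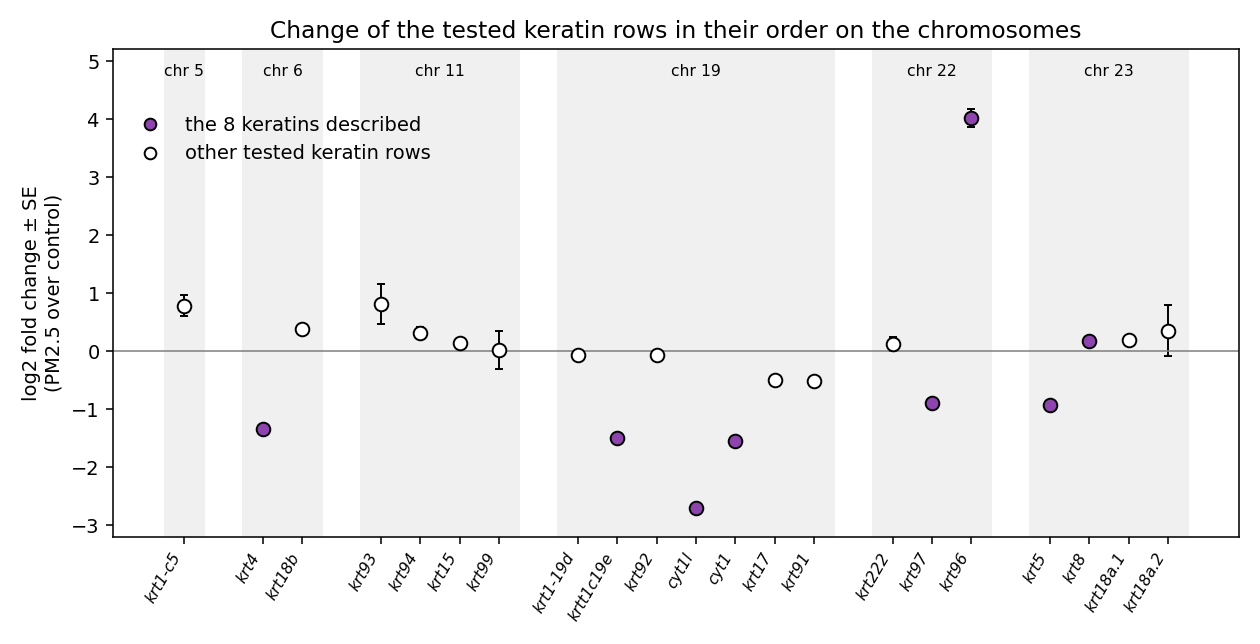
Log2 fold change (PM2.5 over control) with SE bars for the 21 tested keratin rows, in their order along 6 chromosomes (spacing not to scale). Filled points are the 8 keratins described and open points the other tested keratin rows. On chromosome 19, krt92 (-0.07) sits between krtt1c19e (-1.50) and cyt1l (-2.71).

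Most non-keratin genes listed for the superficial skin layer were higher with PM2.5. In RNA of whole larvae, no value shows in which tissue they were transcribed. The gene lists here and below were chosen with earlier results of these data known. Their counts and adjusted p-values are thus a description and no test of the lists. In a list of 20 non-keratin genes of the periderm and its epithelial character, 19 were tested, 13 rose, 1 fell and 5 did not pass, beside 8.46% higher and 2.62% lower among all tested genes. Their median log2 fold change was 0.74, beside 0.07 for all tested genes. The periderm claudin gene cldne, for a tight junction protein, had 214 and 201 TPM in PM2.5 larvae, against 51.9 and 53.4 TPM in controls (log2 fold change 1.96, limma adjusted p = 6.0e-05). The protease inhibitor gene spint2 had 194 and 175 TPM in PM2.5 larvae, against 58.5 and 56.3 TPM in controls (1.67). The annexin gene anxa1b had 134 and 114 TPM in PM2.5 larvae, against 24.4 and 21.6 TPM in controls (2.38). No single library decided any of these 3 calls. The member that fell was icn2, an ictacalcin gene, at 216 and 206 TPM in PM2.5 larvae, against 300.0 and 308 TPM in controls (-0.53, named after its value was seen), and its call was lost when either control library was left out. The annexin gene anxa1c of the same list was lower in both PM2.5 libraries without passing, at 34.9 and 43.1 TPM. Controls had 47.6 and 50.5 TPM of anxa1c (-0.33, limma adjusted p = 0.14, named after its value was seen). By sign alone, 17 of the 19 log2 fold changes were positive and 2 negative. The summed TPM of the tested periderm genes was 2106 and 2026 in PM2.5 larvae, against 1368 and 1405 in controls. The number that rose was 12 with TMM-type scaling, 13 with quantile normalization, 8 without the intensity trend and 8 whichever library was left out.

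Of 13 tested genes of basal keratinocytes, 2 rose, none fell and 11 did not pass, with a median of -0.17, beside 8.46% higher, 2.62% lower and a median of 0.07 over all tested genes. The claudin gene cldni had 118 and 116 TPM in PM2.5 larvae, against 74.9 and 79.5 TPM in controls (0.59, limma adjusted p = 0.0039). The regulator gene tp63, needed for basal keratinocytes, had 20.7 and 19.6 TPM in PM2.5 larvae, against 13.1 and 12.8 TPM in controls (0.60, adjusted p = 0.023). The call of tp63 was lost in each of the 4 fits without 1 library, and that of cldni in 3 of them. The anchoring fibril collagen gene col7a1 stood at -0.68 on the log2 scale and did not pass (adjusted p = 0.084). At an unadjusted p under 0.05 in limma there were 6 genes of this list, beside 5669 of all 20874 tested genes. Of the 6, cldni, tp63 and col17a1b were higher, and col7a1, itga6b and itgb4 were lower. The genes col17a1b, itga6b and itgb4 were named after their values were seen. The count of 0 lower genes at the adjusted threshold depended on the scaling: quantile normalization called 2 of the list lower, and voom on read numbers called 5 lower and 3 higher.

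Genes for proteins that tie keratin filaments to junctions or to the cell envelope formed a further list. Of 18 tested genes of desmosomes, filament linkers and transglutaminases, 3 rose, none fell and 15 did not pass (median 0.12), beside the 8.46% higher and 2.62% lower of all tested genes. They were the transglutaminase gene tgm1 (12.7 and 15.3 TPM in PM2.5 larvae, 4.67 and 6.19 TPM in controls), the desmosome gene perp (112 TPM in both PM2.5 libraries, 80.0 and 86.4 TPM in controls) and the plakoglobin gene jupa (47.9 and 46.6 TPM in PM2.5 larvae, 33.9 and 35.9 TPM in controls). All 3 calls were lost in each of the 4 fits without 1 library, and that of jupa also under either rescaling of the libraries. Of 14 epidermal transcription factor genes, 3 rose, none fell and 11 did not pass (median 0.37), against the same shares. The gene ovol1a had 11.1 and 12.7 TPM in PM2.5 larvae, against 1.75 and 2.01 TPM in controls (2.16, limma adjusted p = 0.0015). The Grainyhead-like gene grhl2a had 13.6 and 13.2 TPM in PM2.5 larvae, against 4.93 and 4.67 TPM in controls (1.31), and the Krüppel-like gene klf6a had a log2 fold change of 0.42. The calls of grhl2a and klf6a were lost in each of the 4 fits, while that of ovol1a was kept in all 4.

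Intermediate filament genes other than keratins, the lamin genes lmna, lmnb1 and lmnb2 among them, were compared as well. Of 20 tested, 3 fell, none rose and 17 did not pass, with a median of -0.06, beside 2.62% lower and 8.46% higher among all tested genes. They were the lens filament gene bfsp2 (48.7 and 46.6 TPM in PM2.5 larvae, 86.7 and 79.9 TPM in controls), the muscle desmin gene desma (-0.27) and the neurofilament gene nefla (-0.70). With 1 library left out, bfsp2 kept its call in 1 of the 4 fits and the other two in none. The log2 fold changes of this list ran from -0.79 to 0.18, a span that holds krt8 but none of the other 7 keratins described.

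**Figure D5:**
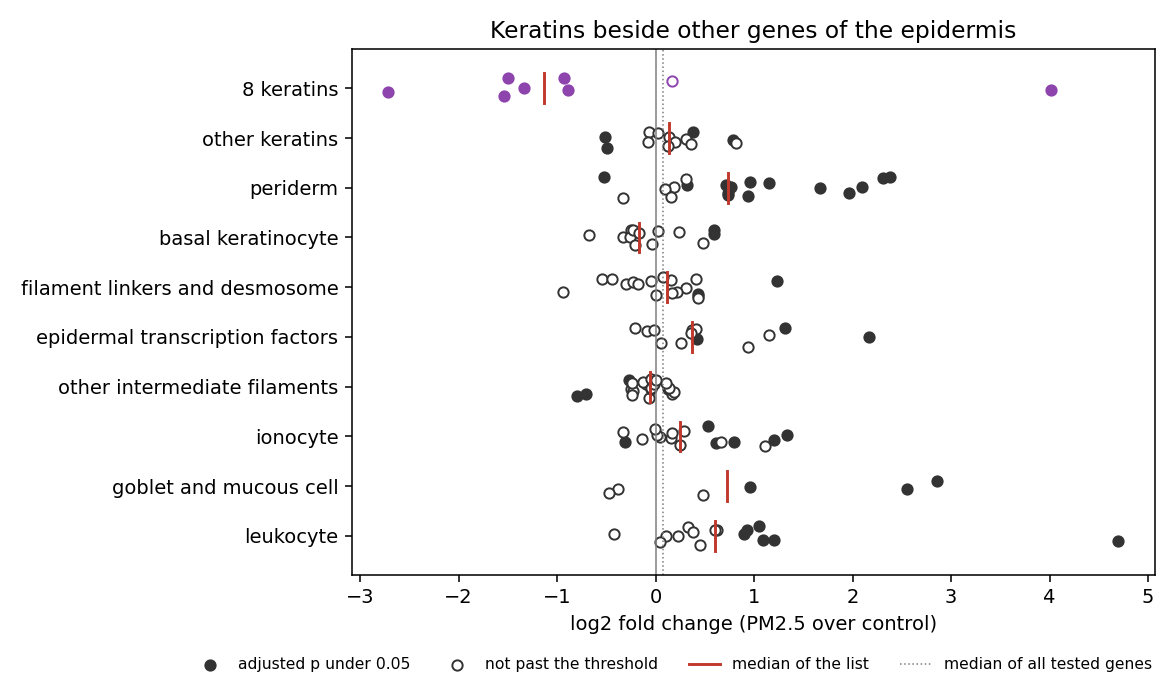
Log2 fold change (PM2.5 over control) of each tested gene in 10 groups: the 8 keratins, the other keratins and 8 lists. Filled points passed an adjusted p of 0.05 in limma, open points did not, the red line is the median of the group and the dotted line that of all tested genes. The 8 keratins have a median of -1.13 and the periderm list one of 0.74. The 8 keratins and the 8 lists were chosen with earlier results of these data known.

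Markers of other cell types that skin or whole larvae can hold were compared in the same fit, in which 8.46% of all tested genes were higher and 2.62% lower. Of 17 tested ionocyte genes, 5 rose and 1 fell, and their summed TPM was 574 and 596 in PM2.5 larvae, against 526 and 562 in controls. The ionocyte genes with the smallest p were the regulator gene foxi3b (1.20), the calcium channel gene trpv6 (1.33) and the sodium pump gene atp1a1a.3 (0.61). The ionocyte gene that fell was another sodium pump gene, atp1a1a.4 (-0.31, named after its value was seen). It had 90.5 and 97.2 TPM in PM2.5 larvae, against 118 and 116 TPM in controls. Of 12 listed goblet and mucous cell genes 6 were tested, of which 3 rose and 3 did not pass. The summed TPM of the 6 was 129 and 143 in PM2.5 larvae, against 71.2 and 69.8 in controls. Of the 3 that rose, the disulfide isomerase gene agr2 had 62.3 and 64.4 TPM in PM2.5 larvae, against 9.03 and 6.91 TPM in controls. The mucin gene muc5.1 had a log2 fold change of 2.55, and foxa3 had 0.96. The 3 that did not pass were spink4 (-0.39), itln3 (-0.47) and fer1l6 (0.48), all named after their values were seen. The level of spink4 was 34.5 and 43.9 TPM in PM2.5 larvae, against 49.7 and 52.7 TPM in controls. Of 15 tested leukocyte genes 6 rose and 9 did not pass. Among the 6 were mpeg1.2, a perforin-like gene of macrophages (4.70), lcp1 (1.09) and rac2 (1.20). The summed TPM of the 15 was 202 and 206 in PM2.5 larvae, against 79.0 and 75.6 in controls. Of this sum mpeg1.2 alone held 75.3 and 80.8 TPM in PM2.5 larvae, against 3.43 and 1.08 TPM in controls. Among the 9, the groups overlapped for ptprc and csf1ra (both named after their values were seen). No ionocyte or notochord and fin mesenchyme gene kept its call when any library was left out, and 2 goblet and mucous cell genes did each time. The number of leukocyte genes that rose was 1 without either control library, 0 without PM2.5 library 1 and 2 without PM2.5 library 2. Of 13 tested enterocyte genes 3 rose, among them anpepb (0.84, named after its value was seen), and 5 fell, among them rbp2a (-0.63), chia.2 (-0.56) and pck1 (-0.45). With 1 library left out, 0 enterocyte genes rose and 2 or 3 fell. Of 10 genes of notochord and fin mesenchyme 3 rose, col2a1a (0.32), and2 (0.41) and and1 (0.42), and none did after TMM-type scaling. The part of these cell types in the keratin values was not tested.

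Genes whose pattern over the 4 libraries was nearest to a keratin were found by the Euclidean distance of log2(TPM + 1) centred on the gene mean. The measure rests on 4 libraries in 2 groups, so it mostly reflects the size of the difference between the groups. For cyt1l the nearest were the hepcidin gene hamp (distance 0.28), the transcription factor gene fosab (0.42) and the microRNA precursor dre-mir-24-3 (0.49). For krt96 they were the oxoglutarate receptor gene oxgr1a.1 (0.36), the G protein subunit gene gna14 (0.48) and the chemokine gene ccl20b (0.60). The added 1 TPM shrinks the differences of genes near 0, so the distances of such genes depend on it. Among these genes, dre-mir-24-3 had 0 TPM in both PM2.5 libraries, and oxgr1a.1 had 0.073 and 0 TPM in controls. The level of hamp was 1.69 and 1.96 TPM in PM2.5 larvae, against 22.1 and 20.1 TPM in controls. Nearest to cyt1 were ahsg1 (0.037) and the immediate early gene egr1 (0.094), and nearest to krtt1c19e were ahsg1 (0.090) and the insulin gene ins (0.15). The gene ahsg1, a fetuin gene of the liver, had 7.45 and 7.73 TPM in PM2.5 larvae, against 23.4 and 23.8 TPM in controls. For krt4 the nearest were the pyruvate dehydrogenase kinase gene pdk2b (0.099) and ins (0.10). For krt5 they were ndrg1b (0.083) and the cytochrome P450 gene cyp2p9 (0.084), and for krt97 ndrg1b (0.049) and the heat shock gene dnajb1b (0.072). For krt8 they were reep3a (0.0093) and the splicing protein gene snrpb (0.013). Keratins were left out of the search, and likeness over 4 libraries says nothing of shared function or control.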

How the data were processed

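The authors deposited 1 table of TPM values with a column for each of 4 libraries, whose titles give the groups. The build is GRCz11, and cutadapt 1.18 and STAR 2.6.1c were used, per the submitters' processing notes. How reads were counted (program, annotation, gene lengths, strand, multi-mapped reads) is not given in the sources used here, and the labels name more than 1 extraction kit and sequencer. Of 32925 rows, 405 repeated a gene ID with the same TPM, and each of 32520 IDs was used once. The members and gene lists were chosen with earlier results of these data known.

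The 20874 genes averaging 1 TPM or more entered a two-sided limma test (version 3.58.1, R 4.3.3) of log2(TPM + 1) on the group alone, with moderated variances that follow an intensity trend and Benjamini-Hochberg adjusted p-values called under 0.05. This scale understates changes of low genes. TPM keeps no depth, but ratios between libraries are ratios of whole numbers: for 25329 of 25331 genes above 0 in at least 2 libraries, read numbers up to 300000 came within 5.9e-05 of a whole number. They hold up to a factor common to the libraries, so depths are lower bounds, and were used for limma voom, an alternative chosen after seeing the data. The rule for named genes takes all 8 keratins, the other keratins with the highest TPM or smallest p, the 3 members of each list with the smallest p, and the nearest genes by pattern (2 per keratin, 3 for cyt1l and krt96; leaving out clone-named genes there was decided after seeing the data). Sequences were not analysed here. The planned choice between symbols of a repeated ID gave no alternative, since 0 IDs had more than 1 symbol. Alternatives were other pseudocounts, filters and scalings, no trend, a replicate term and leaving out each library.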

Additional observations from a re-analysis of the deposited data

How the results depend on the processing

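The log2 fold changes of the 8 keratins had the same sign under all 14 alternatives, which is no sign of stability, since the genes were chosen for this contrast. Without 1 library their log2 fold changes ran from -2.72 to -2.70 (cyt1l), -1.58 to -1.51 (cyt1), -1.53 to -1.48 (krtt1c19e), -1.35 to -1.32 (krt4), -0.94 to -0.92 (krt5), -0.92 to -0.85 (krt97), 0.16 to 0.18 (krt8) and 3.82 to 4.21 (krt96). Rescaled to the summed TPM of the other keratin rows, an alternative chosen after seeing the data, cyt1l had -2.35, krt97 -0.52 and krt8 0.53. The value of krt8, described only, lay past the threshold in that fit, with a mean of at least 5 TPM (0.17), after quantile normalization (0.16) and with the replicate block (0.17).

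Over all genes, 1766 were higher and 547 lower. Without 1 library these were 286 to 371 higher and 70 to 124 lower, and without the intensity trend 665 and 105. Quantile normalization gave 962 lower genes and voom 1924. Higher genes were 76.4% of the calls as deposited, 61.2% with TMM-type scaling, 57.9% with quantile normalization and 49.6% in voom. Of the other keratins, 2 were higher as reported, 1 without a filter on the mean, with TMM-type scaling and with quantile normalization, and 0 without the intensity trend and in each fit without 1 library. The lower ones fell to 0 without the trend. The listed genes called came to 21 without the trend and 14 to 17 without 1 library. The cause of these shifts was not tested.

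The replicate numbers share no stated batch, and the deviations of same-numbered libraries had a correlation of 0.065, so they were not treated as pairs. The replicate block gave 2072 higher and 781 lower genes. Among the 8 keratins the fewest reads, 50 and 53, stand behind krt96 in controls. The rows krt18a.2 (33 reads in control library 1), krt93, krt95, krt98 and krt99 rest on fewer in some or all libraries.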
